A study of Mus musculus with 31 samples.

Results

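Rbm5 was followed through 3 exon-skipping events measured by RASL-seq in the cortex of 31 mice from 3 models of Huntington's disease (HD). RASL-seq anneals pairs of oligonucleotide probes to RNA on either side of known splice junctions, ligates them and counts the products by sequencing. For each event the short count reads the junction made when the exon is skipped, and the long count reads one made when the exon is kept. Members were all events whose gene symbol in the files is Rbm5. These were 3 of 1922 events, numbered 3924, 4353 and 7834 in the files and all of the cassette exon type. Rbm5 was chosen by measured values, the rise of exclusion at events 4353 and 7834 in Q150 mutant over wild-type (WT) mice, and event 3924 belongs to it by the same symbol. Changes of Rbm5 between Q150 genotypes are therefore described without a test, and such changes were tested only in the other models.

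R6/2 mice carry a transgene with the first exon of mutant human huntingtin, and 3 of them (HD) were set against 3 WT mice of that line. The knock-in mice carry an expanded repeat in their own huntingtin gene, encoding 150 glutamines (Q150) or 175 glutamines (Q175), either on 1 allele with 7 glutamines on the other (HET) or on the 2 alleles (HOMO). The Q150 line had 4 HET and 4 HOMO mice, and the Q175 line 4 HET and 3 HOMO mice. WT mice of the knock-in lines had 7 glutamines on each allele, 5 of them in files that share the event list of the Q150 mice and the other 5 in files that share that of the Q175 mice. The strains named for the study are B6CBA-Tg(HDexon1)62Gpb/3J, B6.129P2-Htttm2Detl/150J, B6J.129S1-Htttm1Mfc/190ChdiJ and C57BL/6J, and the WT mice of the R6/2 line are called littermates. Ages in the methods are 3 months for R6/2, 7 months for Q150 and 18 months for Q175, in a sentence that also exchanges the numbers of Q150 and Q175 HOMO mice relative to the labels. No mouse was treated, and total RNA came from the cortex of 1 hemisphere. Model, age, strain and file set change together and cannot be told apart.

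RBM5 is a nuclear RNA-binding protein of the RBM family, with RNA recognition motifs, zinc fingers, an OCRE domain and a G-patch. It takes part in the early steps of spliceosome assembly and changes the choice of exons in other transcripts, among them genes of apoptosis. Its close relative RBM10 has been described in human cells to promote the skipping of RBM5 exons whose loss shifts the reading frame, which sends the transcript to nonsense-mediated decay. Skipped forms of such a gene can therefore be made and then removed, and a junction count shows only what is left of them.

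The positions of the events in the files lie outside the Rbm5 gene of GRCm38, although the submitters' processing notes name mm10, and only 14.3% of 1605 events with a matching symbol lie inside their gene's span in that build. The exons were therefore found by spacing. The 3 events span 663, 2420 and 3329 bases in the files, and exactly 1 common shift makes all of them equal to gaps between annotated exons of Rbm5 on the minus strand of chromosome 9 (GRCm38, GENCODE M21). By this match event 3924 skips exon 6, event 4353 skips exon 8 and event 7834 skips exon 16 of the 25 exons of an annotated coding transcript that holds all of them, and the events are called by these exons from here on. Exon 7, of 84 bases, is a flank of both the exon 6 event and the exon 8 event. The sequences of the skipped exons are shown because their lengths decide the reading frame without them, with the exon in capitals and 20 intron bases before and 8 after it in lower case:
Exon 6, chr9:107759776-107759849, minus strand: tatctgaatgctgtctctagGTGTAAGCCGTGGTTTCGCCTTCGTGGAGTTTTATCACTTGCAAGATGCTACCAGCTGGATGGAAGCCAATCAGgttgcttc
Exon 8, chr9:107755853-107755913, minus strand: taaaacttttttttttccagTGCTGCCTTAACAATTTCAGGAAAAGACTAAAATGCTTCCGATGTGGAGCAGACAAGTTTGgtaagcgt
Exon 16, chr9:107750008-107750092, minus strand: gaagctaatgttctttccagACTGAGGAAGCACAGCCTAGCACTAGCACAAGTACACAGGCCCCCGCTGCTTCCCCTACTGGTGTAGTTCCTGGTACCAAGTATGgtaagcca
All 3 exons are coding, and their lengths of 74, 61 and 85 bases are not multiples of 3. Translated from the annotated start, the full reading frame has 815 codons. It meets a stop after 150 codons, in exon 7, when exon 6 is left out. Without exon 8 the stop comes after 217 codons, in exon 10, and without exon 16 after 462 codons, in exon 18. These stops lie 1798, 1610 and 851 bases before the last exon junction of the transcript. Of the 24 annotated Rbm5 transcripts, 2 skip exon 6, 4 skip exon 8 and 1 skips exon 16. Both transcripts that skip exon 6 are labelled nonsense-mediated decay in the annotation, as are 2 of the 4 that skip exon 8, and 1 of these transcripts skips both exons. The other 2 that skip exon 8 are labelled retained intron, and the 1 that skips exon 16 is labelled protein coding.

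The R6/2 files list 1743 events, those of the Q150 set 1785 and those of the Q175 set 1839. The exon 6 and exon 8 events are in all 3 sets, while the exon 16 event is listed for the Q150 set alone. Each mouse had a total of between 2171709 and 5256516 counts over both kinds of junction. No listed junction had fewer than 4 counts in any mouse, and the short junction of the exon 16 event had only 5 to 10 counts in the Q150 WT mice. No 2 mice of a group gave the same library, since in 47 of 47 such pairs the counts differed beyond sampling noise (chi-square per degree of freedom from 4.26 to 26.0). Markers of neurons with an event in the files include Grin1, Map2, Mapt, Rbfox1 and Syt1, while 3 of 6 markers of oligodendrocytes have one and none of the 5 of astrocytes or the 5 of microglia does, so the events give only a partial check of the labelled tissue.

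The first question was whether the transgene was accompanied by a change in Rbm5 exon usage. Skipping of exon 6 and of exon 8 was higher in the cortex of R6/2 HD mice than in WT mice of the line. Exclusion, the percentage of an event's counts that fall on the skipping junction, was 3.62%, 2.87% and 4.04% for exon 6 in R6/2 WT mice 3, 4 and 6. It was 7.75%, 8.998% and 6.92% in R6/2 HD mice 860, 868 and 869. The lowest HD mouse stood well above the highest WT mouse, and the 95% Wilson intervals of the mice of the 2 groups did not meet. The WT mean was 3.51% ± 0.595 (SD, n = 3) and the HD mean 7.89% ± 1.04 (SD, n = 3), 2.25-fold higher. The change in the log2 ratio of short to long counts, with a pseudocount of 0.5, was 1.24 ± 0.17 (SE), with an adjusted p of 0.000166 (limma, Benjamini-Hochberg over the 1743 events).

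For exon 8 the R6/2 WT mice had 5.73%, 2.75% and 2.33% exclusion. The HD mice had 12.5%, 7.39% and 8.31%. WT mouse 3 and HD mouse 868 came closest to each other, and their Wilson intervals of 3.97% to 8.21% and 5.67% to 9.59% overlapped, since only 27 and 51 short counts lay behind them. The WT mean was 3.60% ± 1.85 (SD, n = 3), against an HD mean of 9.39% ± 2.70 (SD, n = 3). The log2 change was 1.51 ± 0.37 (SE), with a limma adjusted p of 0.00867. Both Rbm5 events of the R6/2 set thus passed the test towards more skipping, as did 21.1% of all events of that set. In both, every HD mouse lay above every WT mouse, which held for 28.6% of all events. The median event of the set rose by 0.18, and with each mouse centred on its median event 285 events passed higher and 196 lower, in place of 368 and 130. By size of the rise, exon 8 ranked 79 and exon 6 ranked 132 among the 1743 events. In bulk cortex, fewer cells of a type and less RNA per cell cannot be told apart, so these are changes of the tissue's RNA. The WT mice carry numbers from 3 to 6 and the HD mice from 860 to 869, so any difference between these series of animals cannot be told apart from the transgene.

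**Figure D1:**
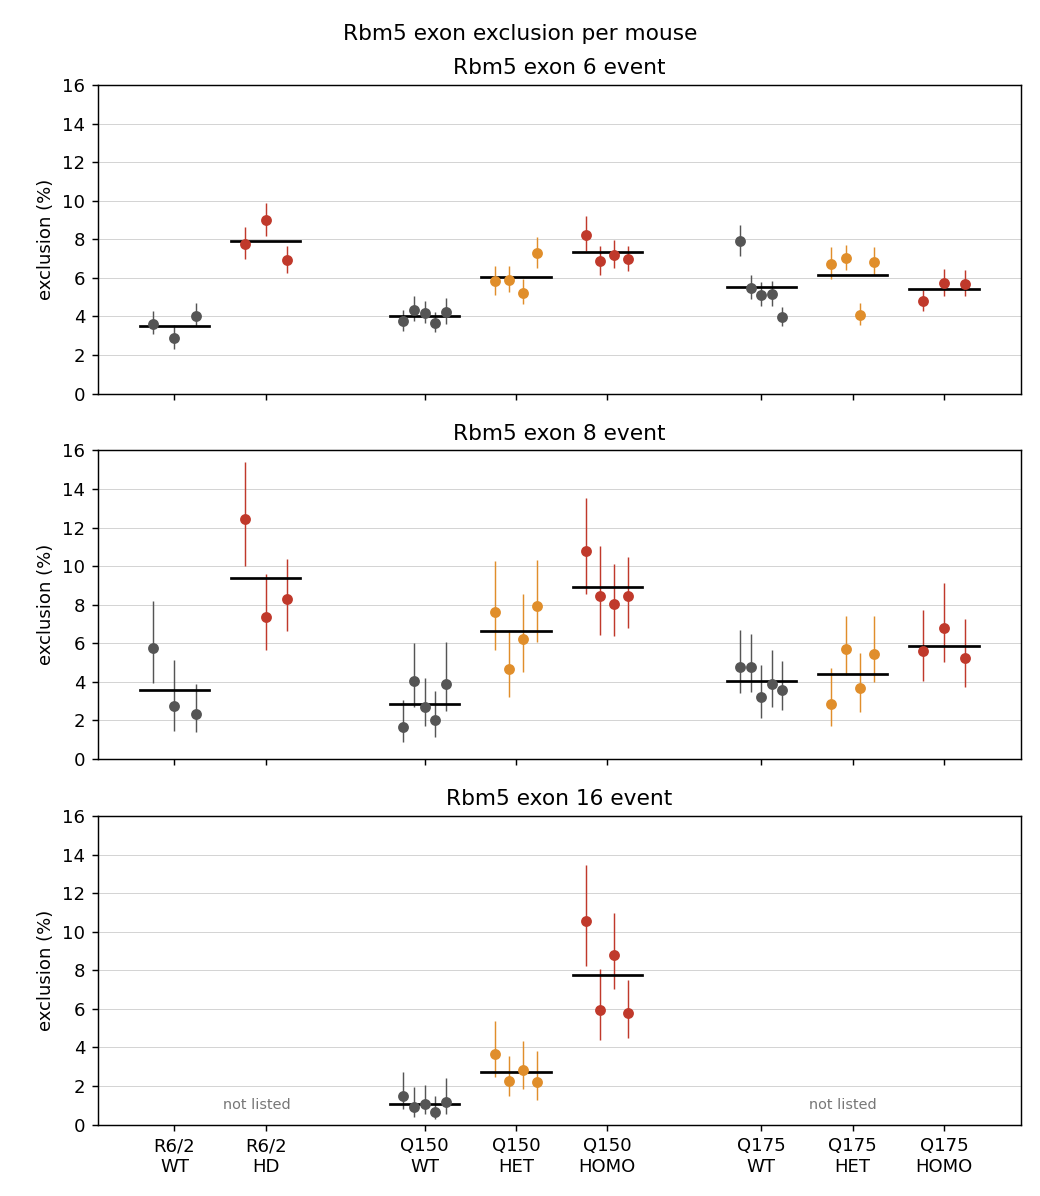
Exclusion (%) of the 3 Rbm5 exons in each mouse, by model and genotype. Points are mice with 95% Wilson intervals, which cover counting error only, and black lines are group means. R6/2 HD and Q150 mutant mice lie above their WT mice for every exon measured, while the Q175 groups overlap for exon 6 and for exon 8 all 3 HOMO mice and 2 of the 4 HET mice lie above all WT mice.

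In the Q150 knock-in mice skipping of all 3 exons was higher with 1 mutant allele and higher again with 2. With 2 alleles the rise was largest for exon 16, by 6.73 percentage points against 6.08 for exon 8 and 3.28 for exon 6. With 1 allele exon 16 rose by 1.68 points, exon 8 by 3.76 and exon 6 by 2.01. Exon 16 exclusion was 1.48%, 0.893%, 1.08%, 0.648% and 1.17% in Q150 WT replicates 1 to 5. In Q150 HET replicates 1 to 4 it was 3.64%, 2.28%, 2.82% and 2.20%. In Q150 HOMO replicates 1 to 4 it was 10.5%, 5.96%, 8.81% and 5.81%. The 3 genotypes did not overlap. This is a description, since exon 16 was chosen for its rise in this set. The share of all events whose 3 genotypes separate was not counted. The means of 1.06% ± 0.312 (SD, n = 5), 2.73% ± 0.660 (SD, n = 4) and 7.78% ± 2.30 (SD, n = 4) put HOMO mice 7.37-fold above WT mice. The counts behind these values were small, with 5 to 10 short counts per WT mouse, 12 to 24 per HET mouse and 39 to 70 per HOMO mouse.

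Exon 8 exclusion was 1.64%, 4.06%, 2.69%, 2.03% and 3.90% in the Q150 WT mice. The HET mice had 7.63%, 4.65%, 6.25% and 7.96%. The HOMO mice had 10.8%, 8.45%, 8.04% and 8.46%. WT and HET mice came close at 4.06% and 4.65%, and HET and HOMO mice at 7.96% and 8.04%, without overlap. Exon 8 too was chosen for its rise in this set, so this is a description. The WT mean of 2.86% ± 1.09 (SD, n = 5) compares with 6.62% ± 1.51 (SD, n = 4) for HET mice and 8.94% ± 1.25 (SD, n = 4) for HOMO mice.

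Exon 6 exclusion was 3.75%, 4.34%, 4.19%, 3.68% and 4.23% in the Q150 WT mice, the narrowest group of all. The HET mice had 5.81%, 5.90%, 5.23% and 7.26%. The HOMO mice had 8.23%, 6.86%, 7.19% and 6.97%. HET mice lay above every WT mouse, and HET replicate 4 fell within the range of the HOMO mice. Means were 4.04% ± 0.302 (SD, n = 5), 6.05% ± 0.861 (SD, n = 4) and 7.31% ± 0.628 (SD, n = 4).

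On the log2 scale the Q150 HET changes were 0.61 ± 0.13 (SE) for exon 6, 1.30 ± 0.27 for exon 8 and 1.36 ± 0.29 for exon 16. The HOMO changes were 0.91 ± 0.13, 1.78 ± 0.27 and 2.90 ± 0.29. Among the 1785 events of the set, exon 16 ranked 2 in HET and 1 in HOMO mice by size of the rise, exon 8 ranked 3 and 5, and exon 6 ranked 122 and 131. Since exons 8 and 16 were chosen for this contrast, their ranks carry no weight of their own. Every HET mouse lay above every WT mouse in all 3 events, which held for 5.94% of the events of the set, and every HOMO mouse did so in all 3, against 14.8%. For exons 8 and 16 this separation follows from the same choice and carries no weight either. The mouse numbers of the Q150 set fall into a series under 100 and a series over 100, and the Rbm5 changes kept their direction in each. In the series under 100 the HOMO changes were 0.93, 1.94 and 2.85 for exons 6, 8 and 16, and in the series over 100 they were 0.89, 1.60 and 3.03. The HET changes were 0.49, 1.24 and 1.32 under 100, and 0.93, 1.54 and 1.30 over 100, where a single HET mouse gave the value.

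In the Q175 knock-in mice neither exon passed the test. Exon 6 exclusion was 7.89%, 5.48%, 5.12%, 5.15% and 3.97% in Q175 WT replicates 6 to 10. It was 6.72%, 7.02%, 4.09% and 6.83% in the HET mice. It was 4.80%, 5.74% and 5.68% in the HOMO mice. All HET and HOMO mice lay within the range of the WT mice, and WT replicate 6 was the highest of the 12 mice of the set. The log2 changes were 0.17 ± 0.15 (SE, limma adjusted p = 0.729) in HET and -0.00052 ± 0.17 (SE, limma adjusted p = 0.999) in HOMO mice. The HET change ran from 0.06 without WT replicate 10 to 0.32 without WT replicate 6 and 0.37 without HET replicate 3, and was 0.39 against all 10 knock-in WT mice, with limma adjusted p of at least 0.358 throughout. The means of 5.52% ± 1.44 (SD, n = 5), 6.16% ± 1.39 (SD, n = 4) and 5.41% ± 0.528 (SD, n = 3) differed by less than the SD of the WT or of the HET mice.

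Exon 8 exclusion was 4.79%, 4.76%, 3.24%, 3.91% and 3.60% in the Q175 WT mice. The HET mice had 2.84%, 5.70%, 3.68% and 5.46%. The HOMO mice had 5.62%, 6.79% and 5.25%. All 3 HOMO mice lay above every WT mouse, as did 2 of the 4 HET mice. In the whole set 9.79% of events had all HOMO mice above all WT mice, and 2.23% had all HET mice there. The WT mean was 4.06% ± 0.693 (SD, n = 5), the HET mean 4.42% ± 1.39 (SD, n = 4) and the HOMO mean 5.89% ± 0.808 (SD, n = 3). The log2 change in HOMO mice was 0.57 ± 0.26 (SE) with an unadjusted limma p of 0.0378 and an adjusted p of 0.219, and in HET mice 0.09 ± 0.24 (SE) with an adjusted p of 0.912. In comparison, 5.6% of all events rose in HOMO mice and 0.381% in HET mice by the same test. Against all 10 knock-in WT mice, which include the Q150 WT mice whose exon 8 values helped to choose the gene, the exon 8 change was 0.85 in HOMO and 0.38 in HET mice and the slope on mutant alleles 0.42, given as a description. With the WT mice of the Q175 set that slope was 0.27 ± 0.13 (SE, limma adjusted p = 0.247) for exon 8 and 0.01 ± 0.08 (SE, limma adjusted p = 0.946) for exon 6. HOMO less HET was 0.48 ± 0.28 (SE, limma adjusted p = 0.537) for exon 8 and -0.17 ± 0.17 (SE, limma adjusted p = 0.785) for exon 6. Without HET replicate 1 the exon 8 value was 0.28, and the exon 6 value ran from -0.37 without HET replicate 3 to -0.085 without HOMO replicate 1, none of them past the adjusted threshold.

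The Q175 HET mice all have numbers under 1000 and the HOMO mice all have numbers over 1000, and only the WT mice occur in both series. Exon 6 exclusion averaged 6.16% in the 3 WT mice under 1000 and 4.56% in the 2 over 1000. Against the WT mice of their own series the exon 6 change was -0.0047 in HET and 0.27 in HOMO mice, and the exon 8 change was 0.02 in HET and 0.67 in HOMO mice. With the series as a term in limma the HOMO values were the same as within the series, and none of the 4 values passed.

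Whether the models differed in size of change was tested directly. The exon 6 change in Q175 HOMO mice was smaller than that in R6/2 HD mice by 1.24 ± 0.28 on the log2 scale (SE, limma interaction, adjusted p = 0.00243 over 1696 events). For exon 8 the difference was -0.94 ± 0.43 (SE), with an unadjusted limma p of 0.0380 and an adjusted p of 0.163. The interaction passed for 13.0% of the events, counting both directions. Model, age and file set differ together in this contrast. It had no term for the series of mouse numbers, and against WT mice over 1000 the exon 6 change of Q175 HOMO mice was 0.27.

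**Figure D2:**
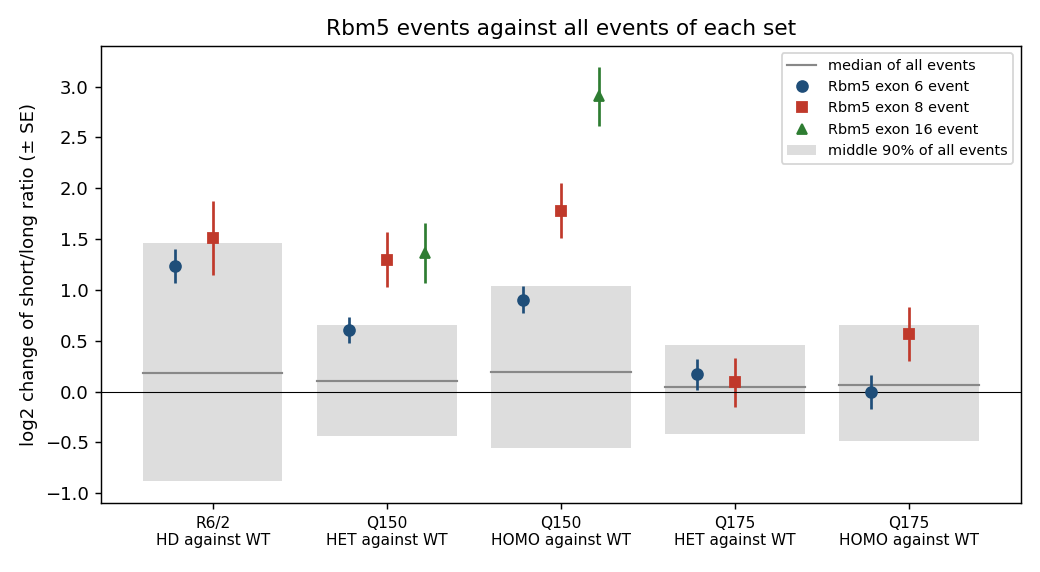
Change against WT of the log2 ratio of short to long counts for the Rbm5 events, with SE from limma, in each comparison. Grey boxes hold the middle 90% of all events of the set and grey lines mark their median. Rbm5 exon 8 and exon 16 lie above the box in both Q150 comparisons, exon 8 lies just above it in R6/2, and both measured exons lie inside it in Q175.

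The order of the groups differed between exons. For exon 8 the mean exclusion rose from Q150 WT (2.86%) through R6/2 WT (3.60%), Q175 WT (4.06%), Q175 HET (4.42%), Q175 HOMO (5.89%), Q150 HET (6.62%) and Q150 HOMO (8.94%) to R6/2 HD (9.39%). Each group overlapped the next in this order, other than Q150 HET and Q150 HOMO. For exon 6 the order ran from R6/2 WT (3.51%) and Q150 WT (4.04%) to Q175 HOMO (5.41%), Q175 WT (5.52%), Q150 HET (6.05%), Q175 HET (6.16%), Q150 HOMO (7.31%) and R6/2 HD (7.89%). The WT mean of the Q175 set was the highest of the WT means for both exons, and for exon 6 only Q150 WT and Q175 HOMO did not overlap as neighbours. The spread between mice also differed. In log2 units the SD of exon 6 was 0.11 in Q150 WT mice, where counting alone gives 0.11, and 0.38 in Q175 WT mice, where counting gives 0.09. For exon 16 the SD of 0.43 in Q150 WT mice was below the 0.55 that counting gives.

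The next comparison asked whether skipping junctions rose, keeping junctions fell, or both. Counts were expressed per 1000000 of all counts of the mouse (CPM). Each junction has its own probes, so levels were compared between mice and not between junctions. In R6/2 mice the skipping junctions rose while the keeping junctions did not pass the test. Mean exclusion in HD mice was only 7.89% for exon 6 and 9.39% for exon 8. A shift of so few counts to skipping would lower the keeping junctions only slightly, so the test could hardly show such a fall. The junction that skips exon 6 had 47.6, 35.9 and 47.1 CPM in R6/2 WT mice and 87.5, 100.4 and 82.8 in HD mice. Its level rose by 1.05 ± 0.15 (log2, SE, limma adjusted p = 0.000117 over 3486 junctions). The junction that skips exon 8 had 9.37, 4.14 and 3.97 CPM in WT and 21.2, 12.9 and 15.9 in HD mice, a rise of 1.57 ± 0.34 (SE, limma adjusted p = 0.00256). Among all junctions 22.8% were higher by this test. The junction that keeps exon 6 changed by -0.18 ± 0.08 (SE, limma adjusted p = 0.0798), and the one that keeps exon 8 by 0.06 ± 0.11 (SE, limma adjusted p = 0.719). With levels scaled by the median junction of each mouse, the change of the junction that keeps exon 6 was -0.30 with a limma adjusted p of 0.0117.

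In the Q150 mice, described without a test, the skipping junctions were also higher, and the same limit holds for the keeping junctions. Levels of the skipping junctions of exons 6, 8 and 16 changed by 0.58, 1.31 and 1.35 on the log2 scale in HET mice and by 0.80, 1.92 and 2.73 in HOMO mice. The keeping junctions changed by -0.03, 0.02 and -0.01 in HET mice and by -0.10, 0.14 and -0.18 in HOMO mice. The junction that skips exon 16 had 1.17 to 2.36 CPM in WT, 3.44 to 7.33 in HET and 10.2 to 16.4 in HOMO mice. The junction that keeps it had 152.6 to 198.3, 152.6 to 194.2 and 138.9 to 178.0 in the same groups, which overlapped throughout. In Q175 mice none of the 4 Rbm5 junctions passed the test in HET or HOMO mice, beside 0.462% and 9.16% of all junctions. The closest was the junction that keeps exon 8, which had 114.2, 144.1 and 143.7 CPM in HOMO mice against 140.3 to 167.5 in WT mice, a change of -0.23 ± 0.10 (SE, limma unadjusted p = 0.0280, adjusted p = 0.152). Without HOMO replicate 1 it was -0.12 (limma adjusted p = 0.574). The junction that skips exon 8 changed there by 0.34 ± 0.27 (SE, limma adjusted p = 0.488), and by 0.17 without HOMO replicate 2.

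**Figure D3:**
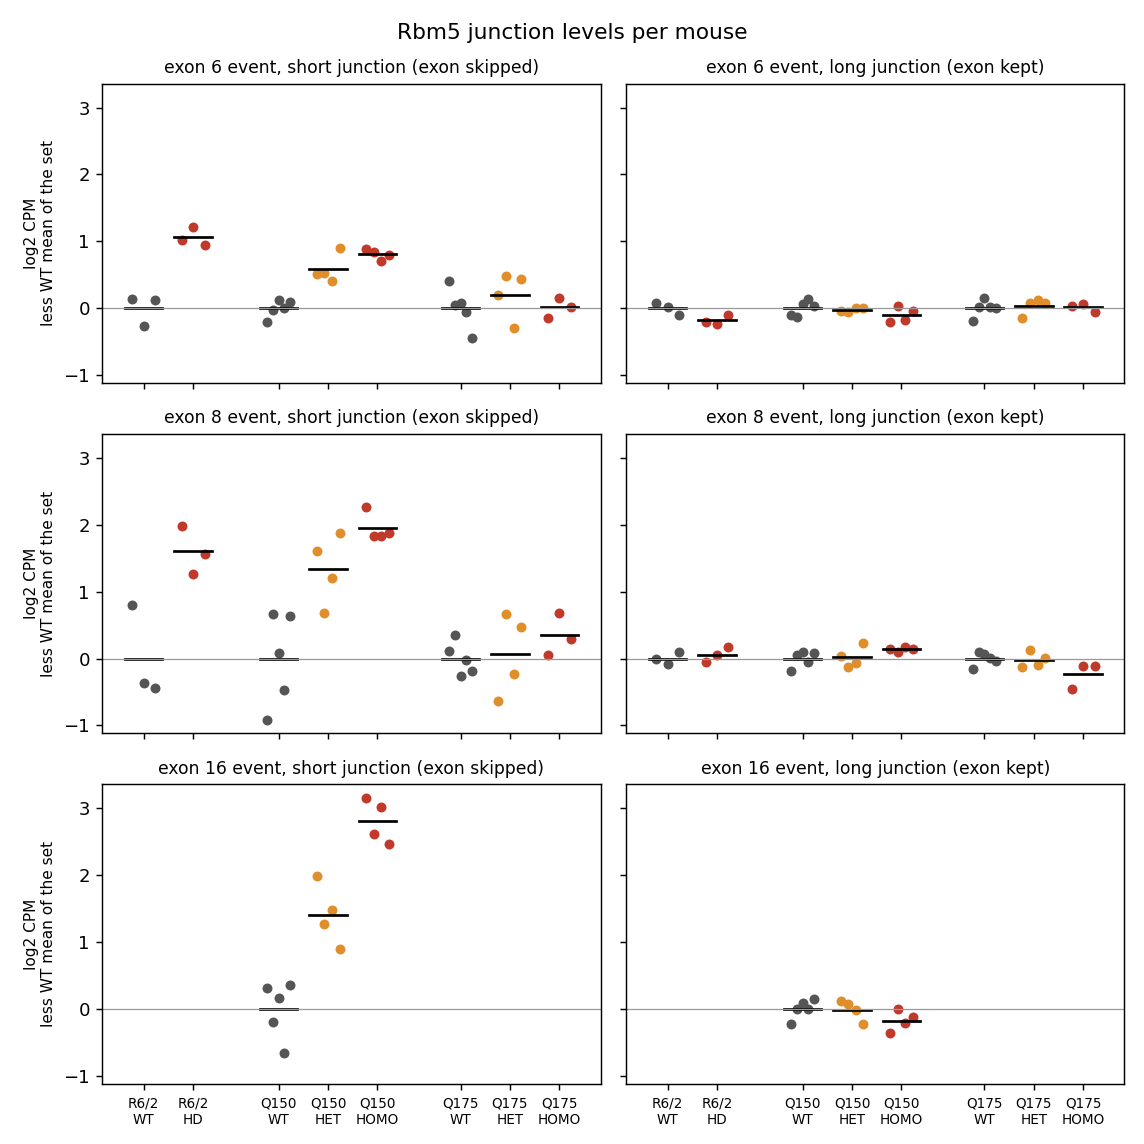
Normalized counts (CPM) of the skipping (left) and keeping (right) junction of each Rbm5 event, as log2 less the WT mean of the same set, with 1 point per mouse and black lines for group means. The skipping junctions rise in R6/2 HD and in Q150 mice, by 1.05 (exon 6) and 1.57 (exon 8) in R6/2 in limma, which used a pseudocount that the points do not, while the group means of the keeping junctions lie between -0.23 and 0.14 of WT on this scale.

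The exons were then compared with each other within each mouse. In R6/2 mice the changes of exon 8 and exon 6 were not shown to differ. The log2 ratio of exon 8 less that of exon 6 averaged 0.25 ± 0.53 (SD, n = 3) in HD and -0.02 ± 0.75 (SD, n = 3) in WT mice. The difference of 0.27 gave a two-sided exact permutation p of 0.60, where 3 mice against 3 cannot go below 0.10. The difference was 0.023 with a pseudocount of 5, and -0.11 without WT replicate 6. In Q175 mice exon 8 less exon 6 averaged 0.14 ± 0.21 (SD, n = 3) in HOMO and -0.42 ± 0.27 (SD, n = 5) in WT mice. All 3 HOMO mice lay above every WT mouse in this difference, which was 0.57 (exact permutation p = 0.0357, adjusted p = 0.107 over 3 comparisons, smallest possible 0.0179). The permutation exchanged mice across the series of mouse numbers, although all HOMO mice but only 2 WT mice have numbers over 1000. The p was 0.0536 when exclusion was compared in percentage points (exact permutation). In Q175 HET mice it was -0.08 against WT (exact permutation p = 0.794). In Q150 mice, given as a description, exon 8 moved more than exon 6 by 0.69 in HET and 0.87 in HOMO mice. Exon 16 moved more than exon 8 by 1.13 in HOMO mice and by 0.07 in HET mice, where the sign turned with a pseudocount of 5 (-0.081) and in percentage points (-2.08).

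To see whether the exons varied together among mice of the same genotype, each mouse was taken as its deviation from the mean of its group. Deviations of exon 6 and exon 8 had the same sign in 24 of 31 mice. Their correlation was r = 0.33 (permutation within groups, p = 0.101) and rho = 0.39 (permutation p = 0.0641), and r = 0.33 (permutation p = 0.118) without the 2 mice farthest from the median. After adjustment over the 3 pairs of exons the values were p = 0.303 for r and p = 0.192 for rho (permutation tests). Within the sets r was 0.63 in the 13 mice of the Q150 set (permutation p = 0.0236), 0.45 in the 12 of the Q175 set (permutation p = 0.253) and -0.09 in the 6 R6/2 mice (permutation p = 0.914). Exon 16 and exon 8 deviated together with r = 0.13 (permutation p = 0.727) and rho = 0.15 (permutation p = 0.652), and exon 16 and exon 6 with r = 0.12 (permutation p = 0.703) and rho = 0.21 (permutation p = 0.501), over the 13 mice of the Q150 set. Without the 2 farthest mice these became -0.11 (permutation p = 0.758) and -0.15 (permutation p = 0.673). In percentage points r was 0.40 (permutation p = 0.222) and 0.38 (permutation p = 0.308). A relation within groups was thus not shown for any pair once the 3 pairs were counted. The small counts of exons 8 and 16 limit what could be seen.

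**Figure D4:**
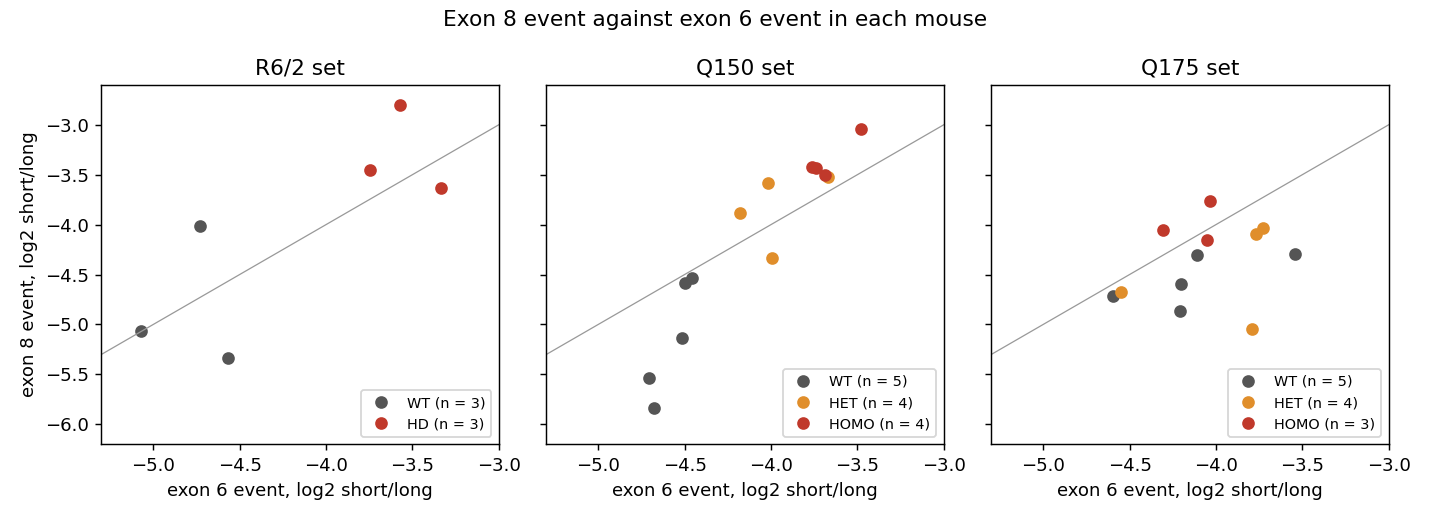
Log2 short-to-long ratio of the exon 8 event (vertical axis) against the exon 6 event (horizontal axis), with 1 point per mouse, for each set; the grey line marks equal values. R6/2 HD mice and Q150 HOMO mice sit up and to the right of their WT mice, and the 3 Q175 HOMO mice lie above their WT mice on the exon 8 axis and within their range on the exon 6 axis.

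The events with the most similar pattern were found by the correlation of log2 ratios, less the WT mean of the set, over 31 mice and 1660 events of other genes. These values are a description, since all points share the groups and each mouse shares its library. The exon 6 event was most like events of Cnot1 (r = 0.88), a scaffold of the deadenylase complex, Guf1 (r = 0.85), a mitochondrial translation factor, Sfrs8 (r = 0.85), now Sfswap, a splicing regulator, Nbr1 (r = 0.84), an autophagy receptor, and Nasp (r = 0.84), a histone chaperone. The exon 8 event was most like events of Nf2 (r = 0.88), which encodes merlin, Xpa (r = 0.87), a DNA repair factor, Hnrnpa1 (r = 0.85), a splicing repressor, Cbs (r = 0.84), an enzyme of cysteine synthesis, and Slc30a9 (r = 0.84), a zinc transporter. No event was in both of these groups. The 2 Rbm5 events had r = 0.80 with each other, and 25 other events were closer to exon 6 and 22 closer to exon 8. For exon 16, over the 13 mice of the Q150 set and 1782 events, the closest were Cbs (r = 0.95), Dnajc8 (r = 0.94), Hnrpdl (r = 0.94), Rbbp6 (r = 0.93) and Camk2d (r = 0.93), against 0.89 for Rbm5 exon 6 and 0.84 for Rbm5 exon 8.

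Other genes of the pathway were counted from fixed lists. In the RBM family, 12 of 42 genes have an event in the files. In R6/2 HD mice 4 of its 14 events rose and none fell, beside 21.1% and 7.46% of all events, and the median log2 change was 0.20 against 0.18 for all events. In Q150 HOMO mice 3 of 15 rose, beside 19.8% of all events, and in Q175 HOMO mice 4 of 15, beside 5.6%. With each mouse centred on its median event the Q150 HOMO count was 1, beside 9.52% of all events, and the Q175 HOMO count 2, beside 4.08%. None passed in Q150 HET or Q175 HET mice, beside 3.03% and 0.381% of all events. The R6/2 events were 2 of Rbfox2, a splicing regulator of neurons and muscle, with log2 changes of 2.22 ± 0.42 (SE, limma adjusted p = 0.00162) and 1.10 ± 0.18 (SE, limma adjusted p = 0.000696), 1 of Rbm26, with 1.30 ± 0.25 (SE, limma adjusted p = 0.00189), and 1 of Rbm10. The Rbm10 event, in the gene of the relative named above, changed by 0.81 ± 0.14 (SE, limma adjusted p = 0.00118) in R6/2 HD mice. It changed by 0.40 ± 0.12 in Q175 HOMO mice (SE, limma adjusted p = 0.0371) and by 0.22 ± 0.13 in Q150 HOMO mice (SE, limma adjusted p = 0.235).

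Of 29 genes of the U2 snRNP and of 3' splice site recognition, 5 have an event in the R6/2 files. There 3 of 6 events rose, beside 21.1% of all events: one of U2surp, with a log2 change of 1.79 ± 0.29 (SE, limma adjusted p = 0.000628), and 2 of U2af1, with 0.44 ± 0.12 (SE, limma adjusted p = 0.0168). The U2af1 events hold the same value in all 62 counts and are 1 measurement listed under 2 numbers. With each mouse centred on its median event 1 of the 6 passed, beside 16.4% of all events. In Q150 HOMO mice 1 of 8 events of the list rose, beside 19.8% of all events. In Q175 mice none of 7 did, beside 0.381% in HET and 5.6% in HOMO mice. Of 6 genes described as splicing targets of RBM5, Casp2, Numb and Dmd have an event, 1 each. They were matched by gene symbol, and whether these events measure the exons described for RBM5 was not checked. None of the 3 passed in any model, beside 21.1% of all events higher and 7.46% lower in R6/2 HD mice and 19.8% and 4.09% in Q150 HOMO mice. The closest was Numb, a regulator of cell fate, in Q150 HOMO mice, at -0.66 ± 0.24 (SE, limma adjusted p = 0.0523), which passed when each mouse was centred on its median event. In R6/2 HD mice Casp2, a caspase, changed by -0.53 ± 0.29 (SE, limma adjusted p = 0.205), Numb by 0.06 ± 0.31 (SE, limma adjusted p = 0.898) and Dmd, the dystrophin gene, by 0.05 ± 0.14 (SE, limma adjusted p = 0.822).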

How the data were processed

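The authors made 1 RASL-seq library per mouse from cortex RNA. The deposited values, given here under the unit other, are whole-number short and long junction counts that were not normalized, with digit-separating commas that were removed here. No molecular identifiers are stated and the libraries were amplified by PCR, so counts may not be independent molecules. Intervals cover counting error only and may be too narrow even for that. The aligner is not given in the sources used here, and the submitters' processing notes name mm10.

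Members and gene lists were chosen with earlier results of these data known. Knock-in lines were taken from the glutamine numbers of the genotype label, since titles call all knock-in mice Q150 and the genotype label opens with Q175 for mice of both lines, so the lines rest on those numbers alone. Per event, log2((short + 0.5) / (long + 0.5)) was fitted by limma (3.58.1, R 4.3.3) over all mice of a set, with variances moderated on a trend of the counts, a mean of at least 10 counts (no event was removed) and Benjamini-Hochberg adjustment over all events (threshold 0.05). Junction levels used log2 counts per 1000000 (CPM) with the same pseudocount. Differences between exons had exact permutation tests, and correlations 100000 permutations within groups. The code was tested on simulated data. Named events were all Rbm5 events, the 5 most alike per exon, and up to 4 per gene list that passed in R6/2 or Q175 mice, by size in R6/2. Likeness of exon 16 could only be had in the Q150 set. Alternatives were another pseudocount, count minimum, variance model, centring, scaling, WT group, series of mouse numbers, and leaving out each mouse. Figures used matplotlib 3.10.9.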

Additional observations from a re-analysis of the deposited data

Results flagged for a closer look

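The Rbm5 exon 6 change of Q175 HOMO mice was smaller than that of R6/2 HD mice, with a difference of -1.24 on the log2 scale and an adjusted p of 0.00243 from the limma interaction. That contrast had no term for the series of mouse numbers. Among 39 combinations of event, group and measure with at least 4 mice, 2 held a mouse far from the rest of its group by Dixon's test, which by chance points to about 1 in 20. Q175 HET replicate 3 had an exon 6 log2 short-to-long ratio of -4.55, far below the other HET mice, whose exclusion was 6.72% to 7.02% against its 4.09%. Q150 HOMO replicate 1 had 18.7 counts per 1000000 at the junction that skips exon 8, far above the other HOMO mice at 13.9 to 14.4.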

How the results depend on the processing

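In R6/2 mice both exons stayed past the threshold under all 5 other settings that altered the fit, with log2 changes of 1.09 to 1.24 for exon 6 (limma adjusted p up to 0.00703) and 1.22 to 1.51 for exon 8 (limma adjusted p up to 0.0407), and when each mouse was left out, with 1.10 to 1.35 and 1.24 to 1.91. With levels scaled by the median junction the R6/2 change of the junction that keeps exon 8 was -0.064, and it ran from -0.0023 to 0.11 when 1 mouse was left out. The interaction of exon 8 ran from -1.34 to -0.68, and passed without R6/2 WT replicate 3 (limma adjusted p = 0.0331).

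Changes near 0 in Q175 mice turned their sign without a call. Exon 6 was -0.0047 in HET and 0.27 in HOMO mice with the series of mouse numbers as a term, where HOMO less HET was 0.27. In HOMO mice it was 0.00011 with a pseudocount of 5 and 0.22 against all 10 knock-in WT mice, and its slope was -0.0071 with events centred on the median event. Leaving out 1 mouse gave -0.052 to 0.29 for exon 8 in HET mice, -0.12 to 0.15 for exon 6 in HOMO mice and -0.052 to 0.086 for the exon 6 slope.

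In Q150 mice the exon 6 change was 0.93 in HET mice with numbers over 100 and 0.71 in HOMO mice after centring, and the HOMO change of exon 16 was 2.35 with a pseudocount of 5. In HET mice exon 16 less exon 8 was -0.081 with a pseudocount of 5 and -2.08 and exon 16 less exon 6 was -0.34 in percentage points. In HOMO mice exon 16 less exon 6 was 1.46 with a pseudocount of 5. Exon 8 less exon 6 in Q175 HOMO mice was 1.94 percentage points (exact permutation p = 0.0536), and ran from 0.49 to 0.69 with 1 mouse left out, where 7 of 8 such values lost the unadjusted call. It ran from -0.11 to 0.64 in R6/2 and from -0.21 to 0.17 in Q175 HET mice. The correlation of exon 8 and exon 6 within groups was -0.091 in R6/2 and 0.63 in Q150 mice alone.

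Centring on the median event moved the Q150 HOMO split from 354 higher and 73 lower to 170 and 157. The counts that passed higher became 1 (RBM family, Q150 HOMO, beside 9.52% of all events), 2 (RBM family, Q175 HOMO, beside 4.08%) and 1 (U2 list, R6/2, beside 16.4%). On the list of RBM5 target genes, 1 event (Numb) passed lower in Q150 HOMO mice, beside 8.8%. The causes of these shifts were not tested. Values within a series of mouse numbers were chosen after seeing the data. Depth limits exons 8 and 16 most. No paired analysis was possible because the R6/2 replicate numbers are not shared between groups and the other numbers were given in order.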
